A study of Mus musculus with 4 samples.

Results

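The promoters of Myc and Pvt1 on mouse chromosome 15 were followed in H3K4me3 HiChIP-seq, a method in which DNA ends that lie close together in the nucleus are ligated and ligations at chromatin carrying trimethylated lysine 4 of histone H3, a mark of active promoters, are precipitated. These 2 genes, out of 8217 promoters with an H3K4me3-enriched region, were chosen by the contact counts of the Myc bin in these same libraries. Their numbers of contacts are therefore a description, and where a value is called below, the call marks a size past a set limit in these libraries and is no test of a condition. MLg cells, a line of mouse lung fibroblasts, were used in all 4 libraries, 1 per condition. Control cells received no TGFB1. TGFB1 cells received human recombinant TGFB1 at 5 ng/ml for 4 h. TGFB1+miR-9-LOF cells were transfected with 60 nM of an antagomiR against miR-9-5p 20 h before the same TGFB1 treatment, and miR-9-LOF cells received that antagomiR alone. By the treatment protocol, cells were harvested 24 h after transfection, and it also lists a negative control antagomiR at 60 nM. The study's text describes the cells of this experiment as given either control or miR-9 probes, while the labels of Control and TGFB1 do not name the control probe. The transfection label of Control reads WT, and that of TGFB1 names the TGFB1 treatment only. The labels alone thus do not show whether those cells were transfected, and an effect of transfection itself was not tested. With 1 library per condition there was no replicate check, and every interval given is a 95% interval that covers counting error only.

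Myc encodes a transcription factor that drives growth and proliferation, and it dimerises with Max to bind DNA. Pvt1 is a long non-coding RNA gene that begins just downstream of Myc and is transcribed in the same direction. The region around both is poor in genes in mammals, and enhancers scattered over it drive Myc in different tissues. In mouse blood stem cells a cluster of enhancers near the far downstream end of this gene desert is known to be needed for Myc expression. The Pvt1 promoter is known in human cells as an element that competes with the Myc promoter for enhancers.

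In MLg cells the Myc promoter had more contacts than nearly every other promoter, and these lay mostly on the Pvt1 side. They were few within 300 kb upstream, rose against expectation with distance downstream, peaked between 1500 and 1800 kb and dropped beyond. Upstream they also rose against expectation up to 1000 kb and then fell. This shape was seen in all 4 libraries. Where 4 values are given in a row, they are those of Control, of TGFB1, of TGFB1+miR-9-LOF and of miR-9-LOF. The number of contacts per library was highest in Control, lower with TGFB1 and lowest in both miR-9-LOF libraries. The H3K4me3 signal at the promoter, counted in part from the same pairs, had the same order. Contacts of nearly all promoters fell likewise, and the size and the sign of the difference for Myc between libraries depended on the scale.

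The start site (TSS) of Myc (ENSMUSG00000022346.15) lies at position 61985391 of chromosome 15 in mm10, on the plus strand, and the gene ends at 61990374. The TSS of Pvt1 (ENSMUSG00000097039.8) lies 52.6 kb further on, at 62037986, and its annotation runs to 62378096. No other protein-coding TSS lay within 500 kb of that of Myc, which made Myc 1 of 94 isolated promoters with an enriched region. The desert, taken from the nearest enriched region upstream of Myc to the nearest one downstream beyond that of Pvt1, ran from 60825001 to 64311000 and was 3.49 Mb long. It held the TSS of 8 protein-coding genes. Beside Myc these were Fam84b and A1bg upstream and the gasdermins Gsdmc, Gsdmc2, Gsdmc3 and Gsdmc4 and Fam49b downstream. Myc alone among them had an enriched region, which follows from the choice of the borders.

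The libraries held 10864558 to 15568047 valid pairs, of which 4981828 to 6956574 lay on 1 chromosome 20 kb to 3 Mb apart. The share of pair ends in enriched regions was 9.62% in Control, 6.94% with TGFB1, 4.07% with TGFB1+miR-9-LOF and 4.71% with miR-9-LOF, so the libraries differed in their enrichment for H3K4me3. Of 6 fibroblast markers, Col1a1, Vim and Pdgfrb had an enriched region and Col1a2, Col3a1 and Thy1 did not. None of 6 markers of epithelial, endothelial and blood cells had one. Outside enriched regions the locus from 61 to 64 Mb was covered 1.04 to 1.13 times as deeply as the median of chromosome 15, which itself was above the median of the autosomes, and the locus stood at 1.38 to 1.51 times that median.

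The reagent of the LOF conditions targets miR-9-5p, whose mature sequence in RefSeq is given here with its seed, bases 2 to 8, in capitals because it names the treatment.
mmu-miR-9-5p: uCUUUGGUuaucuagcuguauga

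The H3K4me3 signal at Myc, counted as pair ends in a 5-kb window at the TSS, was 49.2 ends per 1000000 in Control, 33.5 with TGFB1, 18.2 with TGFB1+miR-9-LOF and 21.3 with miR-9-LOF. The median over the promoters was 14.2, 10.6, 6.88 and 7.78 in the same order, and Myc was at percentile 98.4 to 99.3 of the promoters. At Pvt1 the signal was 31.1, 22.1, 13.1 and 14.8 ends per 1000000, between the median promoter and Myc in every library. These ends include those of pairs counted as contacts below, so signal and contacts are not independent measures.

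Contacts were counted as pairs with 1 end within 10 kb of the TSS and the other 20 kb to 3 Mb away. Myc had 1443 such pairs in Control, 769 with TGFB1, 609 with TGFB1+miR-9-LOF and 756 with miR-9-LOF. Per 1000000 pairs on 1 chromosome at these distances this was 207 (interval 197 to 218), 154 (144 to 166), 98.1 (90.4 to 106) and 110 (102 to 118). Control was highest and its interval overlapped none of the others, while those of the 2 LOF libraries overlapped.

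Among the 8217 promoters Myc ranked 1 in Control and 2 in each of the other 3 libraries. The median promoter had 44.3, 36.5, 28.8 and 30.5 pairs per 1000000. Pvt1 had 769, 457, 395 and 461 pairs, or 111, 91.7, 63.6 and 66.9 per 1000000, and ranked between 150 and 231. Per 1000000 pairs the order of the libraries was the same at both promoters, though the intervals of the 2 LOF libraries overlapped at each.

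The number of pairs expected from distance and coverage is built from the same pair ends that are counted as contacts. A promoter with more contacts is thus expected to have more pairs, and the total ratio cannot show whether it has many or few for its mark. Observed over expected contacts of Myc were 0.694 in Control, 0.678 with TGFB1, 0.683 with TGFB1+miR-9-LOF and 0.710 with miR-9-LOF. For Pvt1 these ratios were 0.578, 0.590, 0.620 and 0.637. Both promoters stood below the median promoter, which lay between 0.95 and 0.982.

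**Figure D1:**
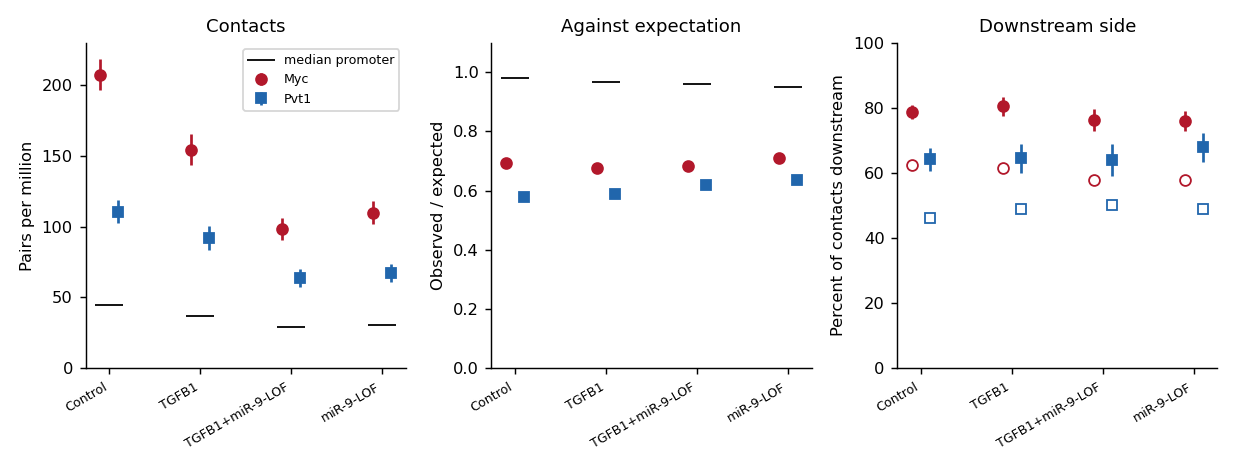
Contacts of Myc (circles) and Pvt1 (squares) by library, with bars for the 95% counting interval where drawn: pairs per 1000000 (left), observed over expected pairs (middle) and the percent of contacts downstream of the TSS (right). Black dashes mark the median promoter and open symbols the percent expected from distance and coverage. Myc fell from 207 pairs per 1000000 in Control to 98.1 in TGFB1+miR-9-LOF. Its observed over expected ratio was 0.678 to 0.710, where the expected number falls with the contacts by its construction.

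Pvt1 lies downstream of Myc, and 1136 of the 1443 contacts of Myc in Control lay on that side, 619 of 769 with TGFB1, 465 of 609 with TGFB1+miR-9-LOF and 574 of 756 with miR-9-LOF. These shares were 78.7% (exact binomial interval 76.5 to 80.8), 80.5% (77.5 to 83.2), 76.4% (72.8 to 79.7) and 75.9% (72.7 to 78.9). From distance and coverage 62.5%, 61.5%, 57.7% and 57.7% were expected. Each share was above its expected value by more than its interval, and the intervals of the 4 libraries overlapped.

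Pvt1 also contacted its downstream side more, at 64.1%, 64.6%, 64.1% and 67.9% against 46.2%, 48.8%, 50.1% and 49.0% expected. The share of contacts on the larger side was greater in Myc than in 97.1 to 98.2% of the promoters, and for Pvt1 it was greater than in 76.6 to 89.0%. Against the 94 isolated promoters the percentiles of Myc were 91.5 to 94.7.

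The asymmetry of Myc was seen close to the promoter. Within 300 kb there were 578 pairs downstream and 89 upstream in Control, 286 and 33 with TGFB1, 207 and 30 with TGFB1+miR-9-LOF and 226 and 42 with miR-9-LOF. In the 4 libraries summed this was 1297 against 194, a log2 ratio of 2.73, and the size of this ratio ranked 73 among the 8217 promoters, whose median was 0.50. For Pvt1, 782 pairs downstream stood against 436 upstream, a log2 ratio of 0.84.

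Upstream of Myc, 194 pairs were seen from 20 to 300 kb where 1202 were expected, a ratio of 0.161 (0.14 to 0.186). Of 16407 promoter sides with at least 5 pairs expected at these distances, only 4 had a lower ratio, and the median was 0.990. The upstream side was covered by reads: ends per kb in the 500 kb upstream of the window were 14.8, 10.7, 14.4 and 15.2 in the 4 libraries, against 24.8, 17.6, 20.9 and 21.1 downstream, and the expectation uses this coverage. Downstream, 1297 pairs stood against 2221 expected, a ratio of 0.584 (0.553 to 0.617). For Pvt1 the ratio was 0.336 (0.305 to 0.369) upstream and 0.667 (0.621 to 0.715) downstream.

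Contacts of Pvt1 in its upstream direction were fewer past Myc. From 20 to 100 kb upstream, which includes the Myc promoter, Pvt1 had 393 pairs, an observed over expected ratio of 0.41. From 100 to 300 kb upstream, past Myc, it had 43 pairs, a ratio of 0.13. In that band the 4 libraries gave 12, 7, 17 and 7 pairs, and TGFB1+miR-9-LOF had the most. The same stretch seen from Myc was depleted alike, with 82 pairs from 20 to 100 kb upstream (0.13) and 112 from 100 to 300 kb (0.20).

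**Figure D2:**
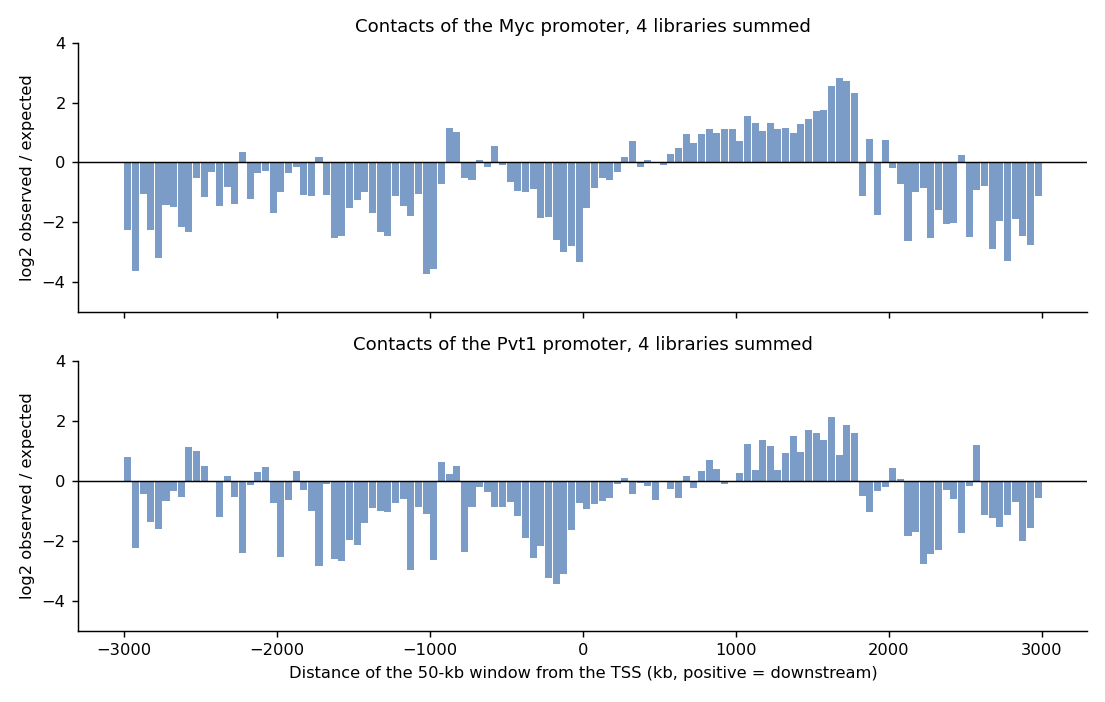
Log2 of observed over expected pairs of the Myc promoter (top) and the Pvt1 promoter (bottom) in 50-kb windows by distance from the TSS in kb, downstream positive, in the 4 libraries summed. Both profiles are low just upstream, climb downstream to a maximum in the windows between 1500 and 1800 kb and drop past 1800 kb, with the band from 1500 to 1800 kb at 5.31 times expectation for Myc and 3.09 times for Pvt1.

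Downstream of Myc the ratio of observed to expected contacts climbed from band to band. It was 0.44 from 20 to 100 kb, 0.79 from 100 to 300 kb, 1.23 from 300 to 600 kb, 1.87 from 600 to 1000 kb and 2.33 from 1000 to 1500 kb in the 4 libraries summed. From 1500 to 1800 kb there were 295 pairs against 55.5 expected, a ratio of 5.31 (4.73 to 5.96). From 300 to 1000 kb together it was 1.44, above the median of 0.761 over all promoter sides and below that of 1.87 over the sides of isolated promoters. Beyond 1800 kb it dropped to 0.52, with 32 pairs up to 2400 kb. The climb and the drop were seen in each library. Upstream of Myc the ratio rose too, from 0.13 at 20 to 100 kb to 0.70 at 300 to 600 kb and 1.16 (1.01 to 1.33) at 600 to 1000 kb. It then fell to 0.34 at 1000 to 1500 kb.

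In the band from 1500 to 1800 kb the pairs numbered 103 in Control, 69 with TGFB1, 51 with TGFB1+miR-9-LOF and 72 with miR-9-LOF. Their ratios to expectation were 5.31, 5.74, 4.79 and 5.36, and the counting intervals of these ratios overlapped. The expected number falls with the contacts by its construction, so these ratios cannot show whether the libraries differ in their number of pairs. The number of pairs in this band relative to library size was not compared. The ratio of the summed libraries was exceeded by 34 of the 11947 promoter sides with at least 5 pairs expected at these distances, whose median was 0.542. The band spans the peak of the Myc profile, while peaks of other promoters may lie at other distances. This favours Myc, so its place among the promoter sides is a description. Against 113 such sides of isolated promoters, whose median was 0.944, Myc was at percentile 97.3 and Pvt1 at 88.5. Pvt1 had 30, 22, 16 and 22 pairs with the same band of its own distances, 3.09 times expectation in sum (2.49 to 3.80), and 232 promoter sides were higher.

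**Figure D3:**
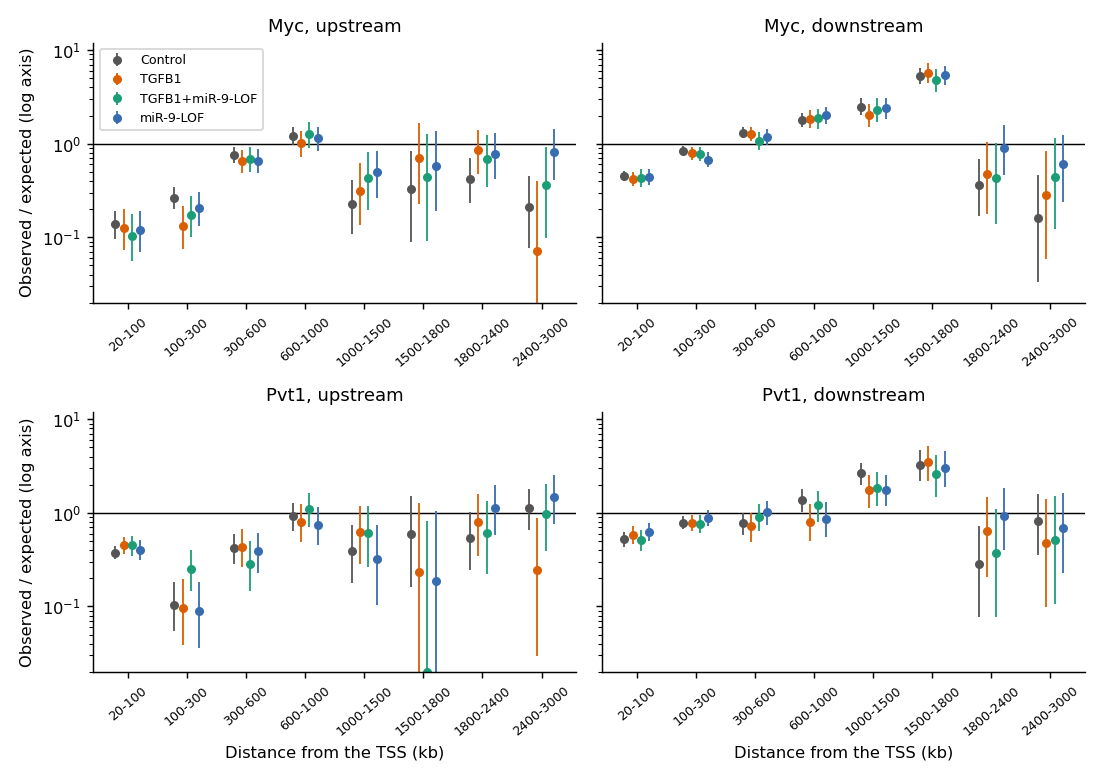
Observed over expected pairs on a log axis by distance band in kb, for Myc (top) and Pvt1 (bottom), upstream (left) and downstream (right). Points are the 4 libraries and bars 95% counting intervals, both cut at 0.02, where a band with 0 pairs is drawn. Downstream of Myc all 4 libraries are at 4.79 to 5.74 in the band from 1500 to 1800 kb, while some upstream bands with few pairs differ between libraries.

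**Figure D4:**
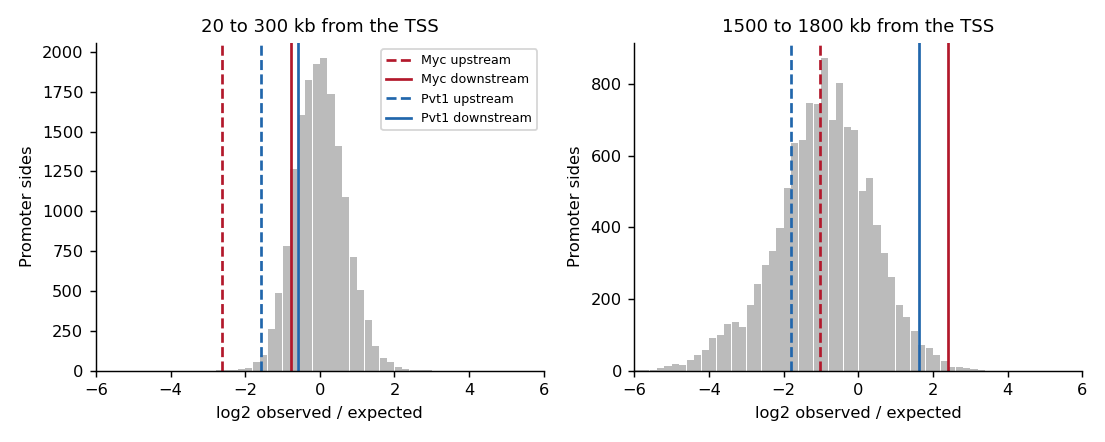
Log2 of observed over expected pairs for all promoter sides with at least 5 expected pairs (grey bars, number of promoter sides) from 20 to 300 kb (left) and from 1500 to 1800 kb (right), in the 4 libraries summed, with lines for Myc and Pvt1 upstream (dashed) and downstream (solid). Myc upstream lies at the low edge on the left, with 4 sides lower, and Myc downstream at the high edge on the right, with 34 sides higher. The band on the right spans the peak of the Myc profile, which favours Myc.

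The share of Myc contacts at 1 Mb or more was 16.8% (14.9 to 18.9) in Control, 20.3% (17.5 to 23.3) with TGFB1, 21.9% (18.7 to 25.4) with TGFB1+miR-9-LOF and 25.9% (22.8 to 29.2) with miR-9-LOF. The share expected from distance and coverage was 10.6%, 10.9%, 11.9% and 12.3%, and the median promoter had 9.63%, 9.46%, 10.6% and 10.8%. Among the 94 isolated promoters Myc was at percentile 60.6 to 88.3 by this share, and at 38.3 by the ratio of observed to expected pairs at these distances in the summed libraries. The intervals of Control and miR-9-LOF did not overlap, and the expected share was also lowest in Control and highest in miR-9-LOF. At Pvt1 the shares were 17.8%, 16.7%, 17.3% and 20.5%, with overlapping intervals.

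A 10-kb partner bin was called in a library with at least 5 pairs and at least 2 times the expected number, and in the 4 libraries summed with at least 10 pairs and the same ratio. Myc had 33 called bins of 596 in the summed libraries, or 5.54%, against 0.676% of the bins of all promoters. A promoter with many pairs, as Myc is, passes the minimum of pairs more easily. Neither this share nor the rank below is adjusted for that. Without Control, the library with the most Myc pairs, the count was 15 with the same minimum of pairs, and without 1 of the other libraries it was 23 to 24. By library it had 27 in Control, 13 with TGFB1, 8 with TGFB1+miR-9-LOF and 11 with miR-9-LOF, where 0.701%, 0.413%, 0.404% and 0.459% of all bins were called. Their order was that of the number of Myc pairs in the libraries.

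With all 4 libraries summed Myc ranked 18 of 8217 by called bins, a rank not computed without Control, and the median promoter had 2. The promoters with the most were those of Pcdh7 with 61 bins, Irs1 with 49, Spry2 with 47, Slit2 with 46, and Kif26b and Enc1 with 41 each. Pcdh7 encodes a protocadherin, Irs1 an adaptor of the insulin receptor, Spry2 an inhibitor of receptor tyrosine kinase signalling and Slit2 a guidance cue. Of these, Pcdh7 was isolated as Myc was. Pvt1 had 2 called bins in the sum (0.336%), and 2, 1, 0 and 2 in the 4 libraries, below the share of all promoters in the sum and in each library. Without any 1 library the count of Pvt1 was 0.

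Of the 33 bins of Myc, 27 lay downstream and 6 upstream. In all, 45 bins were called in at least 1 library, 11 in at least 2, and 1 in all 4. A distant bin seldom reached 5 pairs in a single library. The bin that passed in all 4 spanned 63650001 to 63660000, 1670 kb downstream, inside the long non-coding RNA gene Gm41335. It had 11 pairs in Control, 8 with TGFB1, 5 with TGFB1+miR-9-LOF and 7 with miR-9-LOF, 31 against 2.71 expected, or 11.4 times (7.76 to 16.2). It was the called bin with the highest ratio of either gene.

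Just inside the limit was the bin from 62410001 to 62420000, 430 kb downstream, with 19 pairs and 2.03 times expectation. Just outside was the bin from 62320001 to 62330000, 340 kb downstream, with 93 pairs and 1.996 times. It had the most pairs of any bin over 100 kb from Myc, with 41, 25, 11 and 16 in the 4 libraries, and lies in the 3′ part of Pvt1. The bins at 299.6 kb and 349.6 kb, also inside Pvt1, had 68 and 62 pairs, 1.61 and 1.69 times expectation. From the Pvt1 promoter the same bin at 62320001 had the most pairs over 100 kb away, 47, or 1.44 times.

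Called bins with at most 1 uncalled bin between them were joined, which gave 13 segments for Myc. In 12 of them every library had more pairs than expected, which the call on the sum of the same libraries favours. Of the 13, 0 held an enriched region. No protein-coding gene overlapped any segment. The genes in them were the long non-coding RNA genes Gm38563, Gm41333, Gm30159, Gm41335, 4930449C09Rik and Gm41336, the miRNA gene Gm24810, the snoRNA gene Gm22521 and the processed pseudogene Gm5473.

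The longest segment ran from 63600001 to 63750000, 1615 to 1765 kb downstream of Myc, and 13 of its 15 bins were called. It overlapped Gm41335, Gm5473, 4930449C09Rik and Gm41336 and ended before the gasdermin genes, whose first TSS, that of Gsdmc, lay 1823 kb from Myc. Myc had 68 pairs with it in Control, 49 with TGFB1, 33 with TGFB1+miR-9-LOF and 55 with miR-9-LOF, against 10.7, 6.83, 5.95 and 7.39 expected. The ratios were 6.36 (4.94 to 8.06), 7.18 (5.31 to 9.49), 5.54 (3.82 to 7.78) and 7.44 (5.61 to 9.69), and their intervals overlapped. These ratios too cannot show whether the libraries differ in their number of pairs. Relative to library size, on the scale used above for all Myc contacts, the segment had 9.77, 9.84, 5.31 and 7.99 pairs. No interval was computed for these values.

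This segment took 4.71%, 6.37%, 5.42% and 7.28% of all Myc contacts. Per Myc contact its log2 ratio was 0.44 (-0.13 to 0.99) for TGFB1 over Control, -0.23 (-0.92 to 0.43) for TGFB1+miR-9-LOF against TGFB1 and 0.63 (0.09 to 1.16) for miR-9-LOF over Control. The last interval left out 0. Over the whole band from 1500 to 1800 kb that ratio was 0.42 (-0.04 to 0.86), which includes 0. That band was not set by called bins, but it spans the peak of the Myc profile. Pvt1 had 20, 14, 13 and 13 pairs with the segment, 60 against 18.97 expected, or 3.16 times (2.41 to 4.07). For Myc the ratio was 6.64 times in sum (5.76 to 7.61), but the segment was set by bins called from Myc, so the values of Myc and Pvt1 there are not comparable.

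Between the end of Pvt1 and this segment Myc had 341, 192, 170 and 206 pairs, 1.68 times expectation (1.57 to 1.79), most of them outside the called segments. Of the segments in this stretch, that from 62870001 to 62920000 had 56 pairs, 2.63 times, and that from 62790001 to 62830000, over Gm22521, had 52, 2.24 times. The single bins from 63060001 and from 63110001, in Gm30159, had 18 pairs (5.04 times) and 12 pairs (4.09 times). Pvt1 was called beside them, in the bin from 63100001, with 10 pairs (4.30 times), and its other called bin, from 63660001, lay in the long segment and was also called from Myc.

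Upstream of Myc there were 3 segments. The segment from 61100001 to 61130000, about 870 kb from Myc and holding no annotated gene, had 22 pairs in Control, 2 with TGFB1, 13 with TGFB1+miR-9-LOF and 13 with miR-9-LOF. TGFB1 alone was below expectation there, at 0.552 times, and the other libraries stood at 3.16, 3.98 and 3.20 times. Per Myc contact its log2 ratio was -2.55 (-5.68 to -0.53) for TGFB1 over Control and 3.04 (0.89 to 6.23) for TGFB1+miR-9-LOF against TGFB1. These rest on the 2 pairs of TGFB1 and are among 39 such ratios over 13 segments, of which the interval of 3 left out 0. The neighbouring segment from 61150001, over Gm38563, did not follow this order, with 11, 12, 7 and 5 pairs.

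With no other H3K4me3-enriched region within 3 Mb did Myc have more contacts than expected in the 4 libraries summed. With the Pvt1 promoter region, in a 10-kb bin, there were 75, 39, 23 and 24 pairs, 161 in all against 425 expected, or 0.379 times (0.323 to 0.442). These were many pairs, and the whole band from 20 to 100 kb downstream was at 0.44 times. The expected number uses the coverage of both ends, which is high at enriched regions, so a low ratio there is no lack of contact. The 10-kb bin at 49.6 kb had 148 pairs against 417 expected. The bins on either side had 75 and 97 pairs against 185 and 165 expected. With the region at 9930014A18Rik upstream there were 3 pairs against 12.6 expected, with those at Trib1 and Mtss1 0 pairs against 6.15 and 2.33, with that at Sqle 3 against 4.57, with that at Washc5 and Nsmce2 1 against 4.94, with that at 1700010G06Rik downstream 1 against 3.78, and with the last, 2637 kb downstream, 0 against 1.94. For the first of these the interval stayed below expectation (0.049 to 0.698), and so it did at Trib1 (0 to 0.60). At the others the depth did not allow a difference from expectation to be seen.

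The long downstream segment was also taken as the viewpoint, from which the pairs with Myc are the same pairs counted from the other end. Since its bins were called on their pairs with Myc, a high ratio at Myc follows from that choice and is given as a description. Of 199 bins 500 kb to 2500 kb upstream of it, the bin that holds the Myc TSS had the most pairs, 178, with 62, 45, 24 and 47 in the 4 libraries. By its ratio to expectation, 7.02, it ranked 9 of 199, and the bin 10 kb upstream of it had a higher ratio, 7.99. The next was the bin of the Pvt1 promoter with 39. In windows of 50 kb the ratio to expectation was 6.93 (6.10 to 7.84) in the window that holds the bin of the Myc TSS and the 4 bins before it, 3.28 (2.67 to 3.99) in the next 50 kb and 4.44 (3.4 to 5.69) in the 50 kb upstream. The bin 20 kb upstream of the TSS, outside the Myc window, had 27 pairs against 3.70 expected, 7.30 times. From Myc towards the segment the ratio declined to 2.14 at 800 to 1000 kb and 1.21 at 1200 to 1400 kb.

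**Figure D5:**
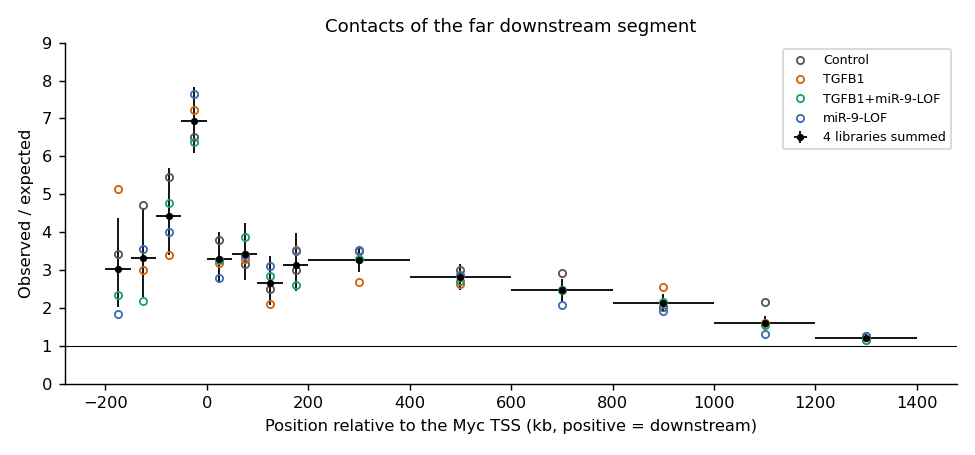
Observed over expected pairs of the segment 1615 to 1765 kb downstream of Myc, by position relative to the Myc TSS in kb. Black points are the 4 libraries summed with the 95% counting interval, horizontal bars the width of each window and open circles the single libraries. The window that holds the bin of the Myc TSS and the 4 bins before it is at 6.93 times, a value that the choice of the segment by its pairs with Myc favours.

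CTCF, a factor that stops loop extrusion and marks the borders of many contact domains, binds a known motif, and its core letters CCANNAGGNGGC were searched on both strands of GRCm38. The letters were present in 2 of the 33 called bins of Myc (6.06%) and in 8.48% of all 10-kb bins of the genome. The matches in the segments of Myc and in the bins with most pairs over 100 kb away are shown, since these are the places in contact with Myc, on the strand of the match with the matched letters in capitals.
Upstream segment, minus strand, chr15:61415796-61415855: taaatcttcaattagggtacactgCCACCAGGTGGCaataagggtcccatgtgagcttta
3′ part of Pvt1, minus strand, chr15:62331400-62331459: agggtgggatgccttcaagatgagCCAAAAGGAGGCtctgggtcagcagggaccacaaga
3′ part of Pvt1, minus strand, chr15:62334778-62334837: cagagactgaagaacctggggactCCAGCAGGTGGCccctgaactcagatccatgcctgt
Segment past the end of Pvt1, plus strand, chr15:62413868-62413927: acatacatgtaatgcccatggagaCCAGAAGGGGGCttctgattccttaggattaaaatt
Long downstream segment, plus strand, chr15:63673534-63673593: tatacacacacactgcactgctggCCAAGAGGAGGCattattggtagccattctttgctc
The matches in Pvt1 lie in the bin 349.6 kb from Myc with 62 pairs, and the match in the long segment lies in 1 of its 2 uncalled bins. A match of letters is not a bound site, and CTCF was not measured here.

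Between libraries, ratios of contacts were taken relative to the median promoter, since the contacts of nearly all promoters fell together: the log2 ratio was below 0 at 94.0% of promoters for TGFB1 over Control, with a median of -0.29, at 94.4% for TGFB1+miR-9-LOF against TGFB1, with a median of -0.35, and at 98.5% for miR-9-LOF over Control, with a median of -0.56. A promoter was called where its relative log2 ratio was past 0.32 and its counting interval left out 0, which compares 2 libraries and not the conditions. For TGFB1 over Control 3.57% of promoters were called higher and 1.79% lower, for TGFB1+miR-9-LOF against TGFB1 4.76% and 3.54%, and for miR-9-LOF over Control 8.64% and 5.76%.

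Relative to the median promoter, Myc stood at -0.13 (-0.26 to -0.01) for TGFB1 over Control, -0.30 (-0.46 to -0.15) for TGFB1+miR-9-LOF against TGFB1 and -0.36 (-0.49 to -0.23) for miR-9-LOF over Control. The last was called lower, and Myc was at percentile 3.81 of the promoters there. The H3K4me3 signal at Myc moved alike, at -0.13, -0.24 and -0.34 relative to the median promoter. It is counted in part from the same pairs as the contacts. Divided by the expected number, the relative log2 ratios of Myc were -0.03, 0.00 and 0.05. The expected number is built from the same pair ends as the contacts. Values near 0 therefore follow largely from the division and do not bear on the call. Less of the mark at the promoter and fewer contacts of it cannot be told apart in these libraries.

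The difference of Myc between miR-9-LOF and Control was larger for partners close by. For partners 20 to 500 kb away the relative log2 ratio was -0.62 (-0.80 to -0.45), and for partners 500 kb to 3 Mb away -0.11 (-0.30 to 0.09). For TGFB1+miR-9-LOF against TGFB1 they were -0.42 (-0.63 to -0.22), which was called lower, and -0.22 (-0.46 to 0.01), and these intervals overlapped. The share of all promoters called was not computed for either range of distances, so nothing particular to Myc is read from these values. Pvt1 was called in no contrast, at 0.02 (-0.15 to 0.19), -0.18 (-0.38 to 0.02) and -0.17 (-0.34 to 0.00).

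Among 3057 other promoters with at least 200 pairs in every library, the 3 with ratios nearest to those of Myc were Ppp1r18, a phosphatase-binding regulator of actin, Tead1, a transcription factor of the Hippo pathway, and Tgfb2, a ligand of the TGFB family. Their Euclidean distances over the 3 relative log2 ratios were 0.031, 0.032 and 0.034. For miR-9-LOF over Control they stood at -0.35, -0.39 and -0.34.

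The partners and regulators of Myc were read by the same rule. Of all promoters, 3.57%, 4.76% and 8.64% were called higher and 1.79%, 3.54% and 5.76% lower in the 3 contrasts. Of 22 genes of the Myc network, 14 had an enriched region, and none of the 14 was called in any contrast. Their medians were 0.04, -0.10 and 0.06 relative to the median promoter. Of 22 genes known as targets of Myc, 18 had an enriched region, with medians of -0.00, -0.00 and -0.01. Among these, 0 were called for TGFB1 over Control, 1 was lower for TGFB1+miR-9-LOF against TGFB1, and 1 was higher and 2 lower for miR-9-LOF over Control.

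The called targets of Myc were Hspd1, a mitochondrial chaperonin, Cdk4, a kinase of the G1 phase, and Ddx18, an RNA helicase. Hspd1 had 517, 283, 211 and 271 pairs in the 4 libraries, and was lower for TGFB1+miR-9-LOF against TGFB1 (-0.39, -0.65 to -0.13) and for miR-9-LOF over Control (-0.36, -0.58 to -0.15). Cdk4 was lower for miR-9-LOF over Control, with 483 and 937 pairs (-0.38, -0.55 to -0.22). Ddx18 was higher there, with 194 and 192 pairs (0.59, 0.29 to 0.88). The H3K4me3 signal of these promoters, counted in part from the same pairs, moved with their contacts. Its relative log2 ratios were -0.26 and -0.29 for Hspd1 in these contrasts, -0.21 for Cdk4 and 0.66 for Ddx18, and its part in the calls was not tested. In miR-9-LOF over Control, 8.64% of all promoters were called higher and 5.76% lower. Against these shares, 3 of 18, 1 higher and 2 lower, is a count of few genes, and nothing particular to the targets is read from it.

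Pairs with another chromosome made up 7.83%, 7.35%, 12.3% and 12.9% of all pairs at the Myc window, whatever their distance, and 17.5%, 15.4%, 19.8% and 18.7% of all pairs of the libraries. At Pvt1 they made up 13.1%, 12.5%, 18.7% and 13.4%. Myc thus had a smaller share than the library as a whole in all 4.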

How the data were processed

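H3K4me3 HiChIP-seq was analysed in 4 libraries of MLg cells, 1 per condition. Per the methods and labels, the authors ran HiC-Pro against mm10 with duplicates removed and ends placed on MboI fragments. Its version is not given in the sources used here. The values deposited by the authors are positions, 1 line per pair, whose lines were counted here, with fragment numbers and a mapping quality score of each end, used only in alternatives. The largest position on chromosome 15 lay within the 104043685 bases of GRCm38.

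H3K4me3-enriched regions were 1-kb bins of the pair ends of the libraries at equal depth, at least 4-fold over their surroundings of 100 kb (Poisson, false discovery rate 0.01). This gave 8746 regions, and 8216 of 21755 protein-coding genes of the GENCODE annotation had 1 within 2 kb of the TSS. Pvt1 was added. The expected number of pairs was the product of the coverages of 2 bins and a factor for their distance. Beyond 100 kb this factor was smoothed over 10 kb to each side. The expected number does not model the mark beyond coverage. Coverage was that of the ends of pairs 20 kb to 3 Mb apart, the same pairs that were counted as contacts. Intervals are exact (Poisson, Clopper-Pearson). The expectation with the bin call of a single library, the promoter ratios and the enriched regions were tested on simulated data. The other steps were not. Tables were read with pyarrow 21.0.0 and pandas 2.3.3, computed with scipy 1.17.1 and numpy 2.4.6 under Python 3.11.15, and drawn with matplotlib 3.10.9.

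The genes and lists were chosen with earlier results of these data known. Named are Myc and Pvt1, coding genes within 3 Mb, genes in partner segments, the 3 promoters nearest to Myc in their ratios, the 5 with the most called bins (6 with a tie) and called members of the Myc lists. With 1 library per condition, calls between libraries rest on a fold limit and counting intervals and compare libraries, not conditions. Alternatives were other windows, distances, bins, thresholds, expectations and totals, a mapping quality of at least 30, and fragment pairs counted once.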

Additional observations from a re-analysis of the deposited data

How the results depend on the processing

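Of 221 values recomputed for 21 results, 103 stayed within their interval or within 1.5 times of the count, 116 moved beyond that, and 2 reversed. The 2 that reversed were those of Myc for miR-9-LOF over Control, per 1000000 pairs in enriched regions and divided by expectation. The relative log2 ratio of Myc for miR-9-LOF over Control was the one called with all partners. It was -0.62 for partners at 20 to 500 kb and -0.11 at 500 kb to 3 Mb, and was called lower under 5 of the 7 alternatives relative to the median. It was 0.045 when divided by expectation, but that division largely cancels the count, since the expectation is built from the same pair ends. For TGFB1+miR-9-LOF against TGFB1, Myc was also called lower for partners at 20 to 500 kb, at -0.42. For TGFB1 over Control, Myc moved to -0.0012 for partners at 500 kb to 3 Mb. Not relative to the median, per 1000000 pairs, Myc stood at -0.43, -0.65 and -0.92 and Pvt1 at -0.27, -0.53 and -0.72 in the 3 contrasts. Per 1000000 pairs in enriched regions, also not relative to the median, Myc stood at 0.059 (-0.07 to 0.19), 0.11 (-0.05 to 0.26) and 0.098 (-0.03 to 0.23) in the 3 contrasts. All of these intervals include 0. Pvt1 stood at 0.22, 0.23 and 0.29 on this scale, with intervals above 0. Divided by expectation, TGFB1+miR-9-LOF against TGFB1 moved to 0.0017 for Myc and 0.064 for Pvt1, and miR-9-LOF over Control to 0.15 for Pvt1. The size of the differences between libraries and their sign thus depend on the scale, at Myc and at Pvt1. For Myc the intervals of the positive values include 0. The cause was not tested.

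The 33 called bins of Myc became 20 with 5-kb bins, 20 at 3-fold, 63 with at least 3 pairs (6 in the sum), 4 with at least 10 pairs (20 in the sum) and 50 with the expectation scaled to the total of the promoter. The 2 of Pvt1 became 0 with 5-kb bins, 6 with 20-kb bins, 11 with at least 3 pairs, 0 with at least 10, 1 in thinned libraries, 5 with the scaled expectation, 6 with the coverage of the promoter alone, 1 at the higher mapping quality and 0 with the window of 5 kb. The share of Myc contacts on the Pvt1 side, 78.1% in the sum, was 79.7% and 74.0% with windows of 5 and 25 kb, 83.4% at 20 to 500 kb, 70.9% at 500 kb to 3 Mb and 86.5% at 20 to 300 kb. Alternatives that leave out 1 library, and the share at 20 to 300 kb, were added after seeing the data. Without 1 library the called bins of Myc were 15 to 24, with the 15 without Control, those of Pvt1 were 0 in every case with the same minimum of 10 pairs, and the share was 77.5 to 78.7%. No paired analysis was possible because there was 1 library per condition. The depth limits single distant bins, where 1 to 3 pairs were expected in the sum.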
